A study of Mus musculus with 20 samples.

Results

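The tumour suppressor p53 and 9 of its classical target genes were followed through mouse colon: Trp53 itself, Mdm2, Cdkn1a, Ccng1, Phlda3, Sesn2, Gdf15, Zmat3, Eda2r and Aen. They were chosen by name, as 10 of the 32991 genes to which the deposited transcripts were summed, and all 10 were measured in every mouse. The study fed the Chinese herbal formula Pien Tze Huang (PZH) to mice with colitis-associated cancer and to healthy mice, in 4 groups of 5 male C57BL/6 mice. The Control group received distilled water by gavage. The PZH group received PZH at 250 mg/kg/d for 91 days. The AOM/DSS group, labelled Model, received the carcinogen azoxymethane (AOM, 12.5 mg/kg, injected) followed by cycles of 2% dextran sulfate sodium (DSS) in the drinking water, with water by gavage. The PZH + AOM/DSS group, labelled Model + PZH, received the carcinogen, DSS and PZH. Each library came from the colon of 1 mouse, at day 91 in all 4 groups. The study injected AOM on the first day. The sources used here do not say how much of it was tumour, and fewer cells of a type cannot be told apart from less RNA per cell.

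p53 is a transcription factor that is held at a low level because Mdm2, an E3 ubiquitin ligase and itself a p53 target, marks it for degradation. After DNA damage and other stresses the protein is stabilised and switches on genes that stop the cell cycle, repair damage or kill the cell. Its level is set mainly by protein stability, so the Trp53 transcript and the activity of the protein can differ. In the colon, alkylating carcinogens such as AOM damage DNA in crypt cells, and p53 is among the genes often inactivated in cancers that arise from chronic colitis.

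The libraries held an estimated 15300000 to 19400000 fragments, with a median of 16900000. The labelled tissue was checked because the text on RNA extraction names the abdominal aorta: the summed colon epithelium markers were 1977 to 7006 FPKM (fragments per kilobase of transcript, scaled to library size) in the 20 mice, against 30.9 to 62.5 FPKM for aorta and endothelium markers. Of 12 colon epithelium markers, 1 was at 0 FPKM in every Control mouse. Control mice 17 and 50 stood apart, with summed squamous epithelium markers of 374 and 285 FPKM against 4.33 to 6.18 FPKM in the other 3 Control mice. Between AOM/DSS and Control, 7 of 8 smooth muscle and 3 of 11 colon epithelium markers were lower (limma, adjusted p under 0.05). By the same test 6 of 7 neutrophil, 5 of 8 macrophage, 3 of 8 lymphocyte and 2 of 7 vessel markers were higher. Over all genes tested, 16.4% passed as higher and 7.23% as lower. The filter for testing was 0.5 FPKM in at least 5 mice of a fit. In PZH against Control only 3 of 8 neutrophil markers met it, so the calls of the others lean on the AOM/DSS mice. Of 8 fibroblast markers 2 were higher and 1 lower, and none of 5 squamous markers passed the test. A fit without Control mice 17 and 50 cannot decide on squamous markers, since these markers set the 2 mice apart. The part of these cell types in the differences below was not tested.

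In the Control colon, Cdkn1a had by far the highest level per transcript length, 104.6 ± 14.3 FPKM (SD, n = 5). Ccng1 followed with 30.5 ± 3.06 FPKM, Trp53 with 15.6 ± 6.06 FPKM, Mdm2 with 10.7 ± 1.44 FPKM and Phlda3 with 9.44 ± 2.65 FPKM. The remaining target genes were lower: Aen at 4.65 ± 0.747 FPKM, Zmat3 at 4.26 ± 0.993 FPKM, Sesn2 at 3.25 ± 0.654 FPKM, Gdf15 at 2.79 ± 1.76 FPKM and Eda2r at 0.467 ± 0.133 FPKM. The ranges of Trp53, Mdm2 and Phlda3 overlapped, as did those of Aen, Zmat3, Sesn2 and Gdf15, whereas Cdkn1a, Ccng1 and Eda2r each had a range of their own. Eda2r and Gdf15 rested on few fragments, with an estimated minimum of 23 and 35 in a library, and Cdkn1a on at least 2534.

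**Figure D1:**
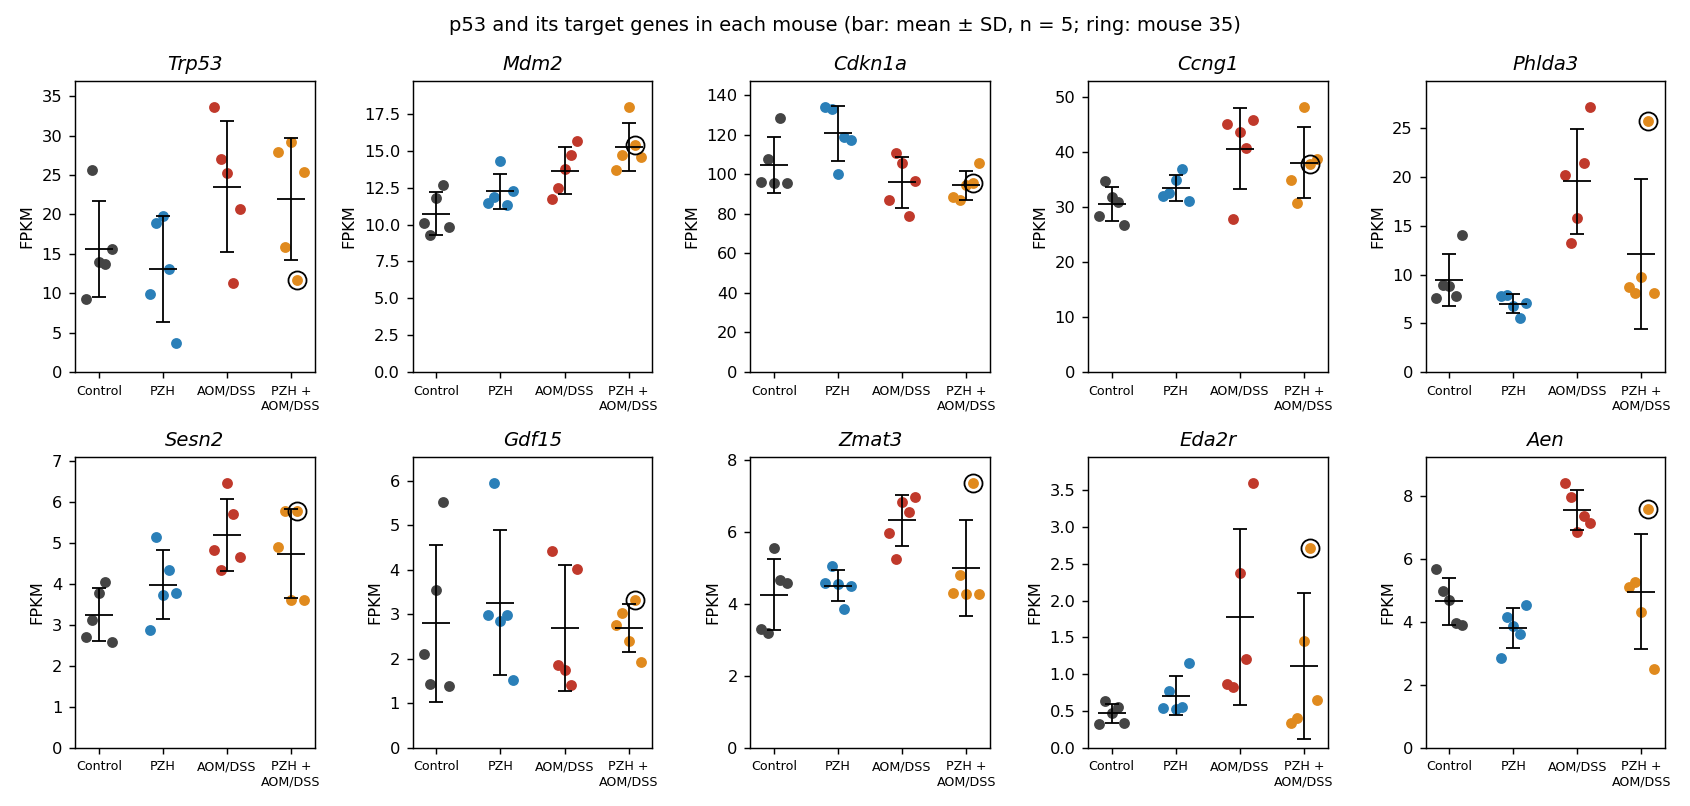
FPKM of p53 and its 9 target genes (1 panel each, vertical axis from 0) in every mouse of the 4 groups; the bar and whiskers are the mean ± SD of 5 mice and the ring marks PZH + AOM/DSS mouse 35. The 5 AOM/DSS mice lay above all Control mice for Sesn2, Eda2r and Aen, as for 13% of all genes tested. Eda2r met the filter on low values through the AOM/DSS mice alone. Mouse 35 lay apart from its group for Phlda3 (25.8 FPKM, the others at most 9.73).

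In AOM/DSS mice, 5 of the 10 genes were higher than in Control mice, namely Phlda3, Eda2r, Aen, Sesn2 and Zmat3, and none was lower. Eda2r met the filter on low values through the AOM/DSS mice alone, so its place in this count and in the median below is a description. Over all 15812 genes tested, 23.6% passed the same threshold (limma on log2(FPKM + 1), Benjamini-Hochberg adjusted p under 0.05) and 16.4% passed it as higher, so a high level after AOM/DSS was common in this tissue. The median log2 fold change was 0.519 over the 10 genes and 0.094 over all genes tested. The calls were not equally firm: Phlda3 and Aen passed whichever mouse was left out. Sesn2 passed in 6 of 10 such fits, Eda2r in 5 and Zmat3 in 2. Without Control mice 17 and 50 together, an alternative added after the data were seen, only Phlda3 and Aen passed, at a background of 17.8%.

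Phlda3 encodes a small pleckstrin homology domain protein that competes with Akt for membrane lipids and so restrains Akt. The gene is at chr1:135766119-135769136 on the plus strand (GRCm38). The 5 Control mice had 7.60, 8.94, 8.79, 7.81 and 14.1 FPKM, and the 5 AOM/DSS mice 20.3, 13.2, 15.8, 21.5 and 27.2 FPKM. Control mouse 50, one of the pair with squamous markers, overlapped the lowest AOM/DSS mouse, and the other 4 Control mice lay below all AOM/DSS mice. The log2 fold change was 0.97 (SE 0.21, adjusted p = 0.00749, limma), and the mean FPKM was 2.07 times that of Control.

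Aen encodes a nuclease of the nucleus and nucleolus that promotes apoptosis, and lies at chr7:78895854-78911209 on the plus strand. Control mice had 5.69, 5.00, 4.70, 3.96 and 3.91 FPKM, and AOM/DSS mice 8.41, 7.98, 6.86, 7.36 and 7.15 FPKM. The groups did not overlap, and the difference was 0.60 on the log2 scale (SE 0.12, adjusted p = 0.00574, limma). Of all genes tested, 13% had every AOM/DSS mouse above every Control mouse. When only transcripts annotated as protein coding were summed, Aen changed by 0.71 with an adjusted p of 0.0719 and the call was lost.

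Eda2r encodes the receptor of the TNF family that binds ectodysplasin A2, at chrX:97333840-97377216 on the minus strand. Its levels were the lowest of the 10, at 0.326, 0.634, 0.479, 0.554 and 0.342 FPKM in Control mice. AOM/DSS mice had 0.865, 0.826, 2.38, 1.203 and 3.60 FPKM, spread over a wide range but above all Control mice, as in 13% of all genes tested. The 5 AOM/DSS mice alone met the filter of 0.5 FPKM in 5 mice, which only 2 Control mice reached, so its call leans on the group where it was high. The log2 fold change of FPKM + 1 was 0.83 (SE 0.24, adjusted p = 0.0325, limma), and the added 1 makes this smaller than the ratio of mean FPKM, which was 3.8. Transcripts annotated as retained introns held part of this: Eda2r-203 had 0 FPKM in each Control mouse and a mean of 0.590 ± 0.582 FPKM in AOM/DSS mice, and with protein-coding transcripts only the log2 fold change was 0.48 (adjusted p = 0.101). The call was also lost without Control mouse 17, 41, 48 or 50 or AOM/DSS mouse 33, at an adjusted p of 0.0549 to 0.0737.

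Sesn2 encodes sestrin 2, a leucine sensor that restrains the growth kinase mTORC1, and is also induced by the transcription factor Atf4. It lies at chr4:132492032-132510501 on the minus strand. Control mice had 2.70, 3.13, 3.79, 4.06 and 2.58 FPKM and AOM/DSS mice 4.83, 4.34, 6.46, 5.70 and 4.65 FPKM, with no overlap and a log2 fold change of 0.55 (SE 0.15, adjusted p = 0.0222, limma). Such a lack of overlap in the higher direction was seen in 13% of all genes tested. The annotation places the gene Gm12981 over 6089 bases of Sesn2 on the same strand, so reads of the pair could be shared. Without Control mouse 17, Control mouse 50, AOM/DSS mouse 33 or AOM/DSS mouse 44 its adjusted p was 0.0501 to 0.0569.

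Zmat3 encodes a zinc finger protein that binds RNA and affects splicing and mRNA stability, and lies at chr3:32334792-32366014 on the minus strand. Control mice had 3.32, 3.21, 5.56, 4.67 and 4.57 FPKM and AOM/DSS mice 5.98, 5.26, 6.84, 6.57 and 6.98 FPKM. Control mouse 41 overlapped the lowest AOM/DSS mouse. Zmat3 changed by 0.49 on the log2 scale (SE 0.15, adjusted p = 0.038, limma), the weakest of the 5 calls, and it was 0.40 with an adjusted p of 0.065 when libraries were scaled by the median of ratios. It passed only without Control mouse 41 or AOM/DSS mouse 30 when mice were left out in turn, and the adjusted p was 0.0534 to 0.0886 without any of the other 8.

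The other 5 genes did not pass the test. Mdm2, the negative regulator of p53 at chr10:117688875-117710758 on the minus strand, had 10.1, 9.31, 11.8, 12.7 and 9.81 FPKM in Control mice and 11.7, 12.5, 13.7, 14.7 and 15.7 FPKM in AOM/DSS mice, with a log2 fold change of 0.32 (95% confidence interval 0.06 to 0.59, adjusted p = 0.0774, limma). Ccng1, which encodes cyclin G1, had 26.7 to 34.6 FPKM in Control mice, and 4 AOM/DSS mice lay above that range with 40.7 to 45.7 FPKM. AOM/DSS mouse 30, at 27.8 FPKM, did not. Its log2 fold change was 0.38 (adjusted p = 0.0741), or 0.51 (adjusted p = 0.00671) without mouse 30. In a fit of all 20 mice, which shares the spread of the 4 groups, Mdm2 and Ccng1 also passed (adjusted p = 0.0315 and 0.0362).

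Trp53 itself, at chr11:69580359-69591873 on the plus strand, varied widely between mice. Control mice had 9.23, 25.6, 14.01, 13.7 and 15.6 FPKM, and AOM/DSS mice had 33.6, 26.98, 25.2, 11.3 and 20.7 FPKM. The ranges overlapped widely, and the log2 fold change of 0.55 had a confidence interval from -0.11 to 1.21 (adjusted p = 0.215). In each library, 12.1 to 14.8% of the summed FPKM was assigned to assembled transcripts that carry no gene name. Fragments of Trp53, or of any other gene, placed there would be missing from its sum. The secreted stress cytokine Gdf15 differed by -0.01 (95% confidence interval -0.74 to 0.73, adjusted p = 0.991), with 1.38 to 5.51 FPKM in Control and 1.41 to 4.41 FPKM in AOM/DSS mice.

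Cdkn1a encodes p21, the inhibitor of cyclin-dependent kinases through which p53 stops the cell cycle, and lies at chr17:29090976-29100727 on the plus strand. It had 96.1, 107.6, 95.3, 128.4 and 95.8 FPKM in Control mice and 87.0, 110.9, 105.5, 79.0 and 96.7 FPKM in AOM/DSS mice. The log2 fold change was -0.13 (95% confidence interval -0.40 to 0.14, adjusted p = 0.503, limma), so a rise of the size of those of Phlda3, Aen, Eda2r, Sesn2 or Zmat3 lay outside the interval. The annotation has a gene on the opposite strand, AC167363.2, that overlaps Cdkn1a by 1046 bases, and the library kit does not keep the strand.

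p53 acts by binding response elements in DNA, and Cdkn1a is among its best known direct targets, so the promoter windows of the 10 genes were searched for such elements. A window held 250 bases before and 50 bases after an annotated start (RefSeq, GRCm38.p6), and 9 of the 10 genes had at least 1 window. The search was for the p53 response element by its consensus: 2 adjoining units of 10 bases, each with 3 purines, a core of C, 2 bases that are A or T, and G, and then 3 pyrimidines. The cores had to match and up to 3 mismatches were allowed elsewhere. The element reads alike on both strands. It was found in 0.572% of 32851 windows, and in windows of Trp53, Cdkn1a and Aen. The Cdkn1a element had 1 mismatch, found in 0.0548% of windows, and those of Aen and Trp53 had 3. The matches are shown with the cores in capitals, because they differ in how closely they follow the consensus. Beside them stand the 100 bases that end just before the upstream start of Cdkn1a, chr17:29090879-29090978 on the plus strand.
Cdkn1a element: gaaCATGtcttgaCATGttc
Aen element: gggCTTGtccgggCAAGgag
Trp53 element: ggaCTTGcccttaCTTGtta
Cdkn1a upstream: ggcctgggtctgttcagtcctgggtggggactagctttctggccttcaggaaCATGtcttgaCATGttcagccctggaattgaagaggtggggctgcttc

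The Cdkn1a element lay at chr17:29090928-29090947, from 51 to 32 bases before the start of the transcript Cdkn1a-202. The main start, that of Cdkn1a-201, lay downstream at position 29093769 and its window held no match. The Aen element was at chr7:78895937-78895956 and the Trp53 element at chr11:69580284-69580303. A match of letters shows no binding, and genes without a match, which include Phlda3, Eda2r and Sesn2, can have elements outside these windows.

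The transcripts of Cdkn1a were unequal in level. Cdkn1a-201 made up 96.4 to 98.4% of the gene's FPKM in the 4 groups. Cdkn1a-202, the transcript downstream of the element, was listed at 0, 0.494, 1.63, 0.271 and 0 FPKM in Control mice and at 0 in all 5 PZH mice. In AOM/DSS mice it had 2.70, 1.64, 1.98, 0 and 4.65 FPKM, and in PZH + AOM/DSS mice 0, 0, 1.85, 0.325 and 0 FPKM. The AOM/DSS mice other than mouse 44 lay above all Control mice, but mouse 30 only barely, at 1.641 FPKM against 1.633 FPKM in Control mouse 41. These AOM/DSS mice were most of those at 0.5 FPKM or more, so the tests of Cdkn1a-202 lean on the group where it was high. The log2 fold change against Control was 1.01 (SE 0.44) and did not pass the test over 29958 transcripts (adjusted p = 0.204, limma). That of PZH + AOM/DSS against AOM/DSS was -1.09 (SE 0.45, adjusted p = 0.511). Among the transcripts of the 10 genes, Phlda3-201 alone passed in AOM/DSS against Control (adjusted p = 0.0213), where 8.2% of all transcripts tested did, and none passed in PZH + AOM/DSS against AOM/DSS, where 0.0197% did.

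Single transcripts of Mdm2 and Trp53 were far less even across mice than the gene sums. Mdm2-201, which encodes the protein, was over 5 FPKM in 10 mice, at 6.36 to 9.62 FPKM, and Mdm2-209, annotated as a target of nonsense-mediated decay, was listed at 0 in those 10. In 9 other mice Mdm2-209 had 5.94 to 10.2 FPKM and Mdm2-201 had 0.074 to 1.37 FPKM. Neither was high in the remaining Control mouse 41, where the protein-coding Mdm2-202 had 7.645 FPKM. Mice of each group stood on both sides, and no mouse had both transcripts over 5 FPKM. The sum over all Mdm2 transcripts ranged only from 9.31 to 17.9 FPKM. Trp53-201 averaged 0.455 ± 0.516 FPKM in AOM/DSS and 5.121 ± 5.179 FPKM in PZH + AOM/DSS mice. This difference did not pass (log2 fold change 1.775, adjusted p = 0.45, limma). The PZH + AOM/DSS mice alone met the filter of 0.5 FPKM in 5 mice, so this test leaned on the group where Trp53-201 was high. Its values are a description. Transcript values here are estimates from short reads that the transcripts share, and the gene sums were used for the tests of groups.

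**Figure D2:**
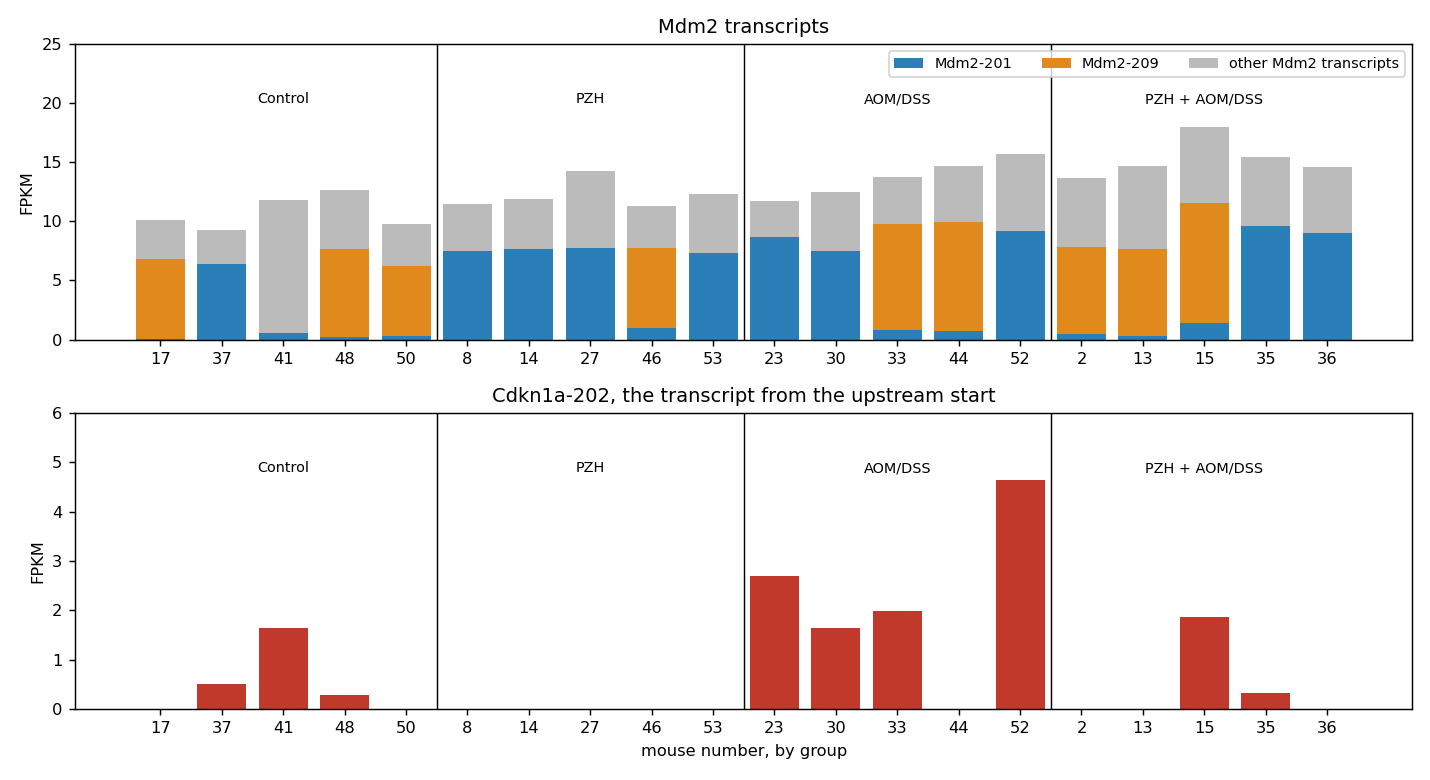
Upper panel: FPKM of Mdm2-201, Mdm2-209 and the other Mdm2 transcripts stacked in each of the 20 mice, in group order; lower panel: FPKM of Cdkn1a-202 in the same mice. Mdm2-201 or Mdm2-209 was high in 19 mice, never both, and Cdkn1a-202 was at 0 in all PZH mice and highest in AOM/DSS mouse 52 with 4.65 FPKM.

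PZH given to healthy mice was compared with Control to see what the medicine alone did. None of the 10 genes passed the test (limma), and none had an unadjusted p under 0.05. Of 15506 genes, 0.00645% passed the adjusted threshold and 8.84% the unadjusted one. The largest of the differences were -0.36 for Phlda3 (95% confidence interval -0.72 to 0.01, adjusted p = 0.569) and -0.35 for Trp53 (95% confidence interval -1.23 to 0.53, adjusted p = 0.815). Phlda3 had 5.59 to 7.88 FPKM in PZH mice, and 3 of the 5 lay below every Control mouse. For Cdkn1a the PZH mice had 133.7, 133.1, 100.2, 118.9 and 117.5 FPKM, with 2 mice above all Control mice and a log2 fold change of 0.21 (adjusted p = 0.622). PZH mouse 53 had the lowest Trp53 of all 20 mice, 3.62 FPKM.

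**Figure D3:**
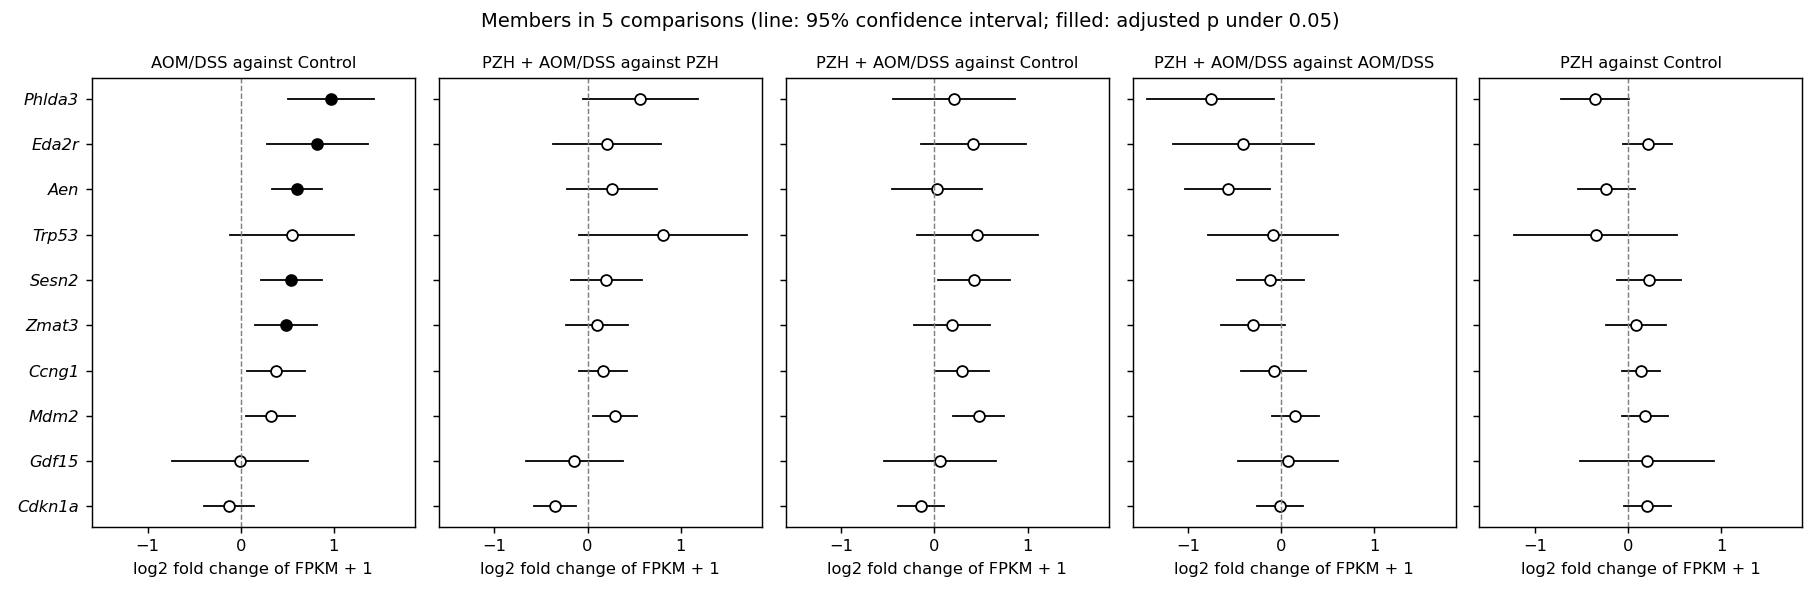
Log2 fold change of FPKM + 1 (horizontal axis) of the 10 genes in 5 comparisons, 1 panel each; lines are 95% confidence intervals from limma and filled points have an adjusted p under 0.05. The 5 filled points all lie in AOM/DSS against Control, and the intervals of Phlda3 and Aen in PZH + AOM/DSS against AOM/DSS lie below 0 without passing the adjusted threshold.

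The comparison of PZH + AOM/DSS with AOM/DSS asks whether PZH changed these genes in the diseased colon. None of the 10 passed the adjusted threshold (limma), where 0.00629% of 15888 genes did, and 2 had an unadjusted p under 0.05, as 11.7% of genes had. These were Aen, with a log2 fold change of -0.58 (SE 0.21, adjusted p = 0.363), and Phlda3, with -0.76 (SE 0.31, adjusted p = 0.389). Zmat3 differed by -0.31 (SE 0.16, adjusted p = 0.467) and Eda2r by -0.41 (SE 0.34, adjusted p = 0.656). Sesn2 and Cdkn1a differed by less, -0.12 and -0.02. Mdm2 differed in the other direction, by 0.15 (95% confidence interval -0.10 to 0.40, adjusted p = 0.62), and by -0.30 with protein-coding transcripts only. No gene of the cell type marker lists passed in this comparison. Of 7 neutrophil markers 6 had an unadjusted p under 0.05, with a median log2 fold change of -1.814 and summed levels of 154 to 472 FPKM in PZH + AOM/DSS against 292 to 830 FPKM in AOM/DSS mice. Of 12 colon epithelium markers 4 did, with a median of 0.724 and sums of 2522 to 5958 against 1977 to 5031 FPKM. In PZH + AOM/DSS against PZH only 4 of 8 neutrophil markers met the filter on low values, so the others leaned on the AOM/DSS mice to be tested. The part of either cell type in the values of Aen and Phlda3 was not tested.

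The values of single mice showed where the spread lay. For Phlda3 the PZH + AOM/DSS mice had 8.69, 8.14, 9.73, 25.8 and 8.08 FPKM. The value of 25.8 FPKM belonged to mouse 35, within the range of the AOM/DSS mice, and the other 4 lay below every AOM/DSS mouse. Zmat3 had 4.31, 4.82, 4.27, 7.36 and 4.27 FPKM, again with mouse 35 high and the other 4 below all AOM/DSS mice. Aen had 5.10, 5.26, 4.32, 7.59 and 2.51 FPKM and showed the same split. For Eda2r, with 0.343, 0.404, 1.45, 2.71 and 0.655 FPKM, 3 mice lay below all AOM/DSS mice and mouse 35 was the highest.

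Mouse 35 also differed from its group in other measures: its summed smooth muscle markers (883 FPKM) and colon epithelium markers (2522 FPKM) were the lowest of the group. Its neutrophil markers (472 FPKM) were the highest, against 154 to 348 FPKM in the other 4, as were its macrophage (341 FPKM), fibroblast (516 FPKM), squamous (69.05 FPKM) and vessel markers (58.9 FPKM). The part of these in its p53 target levels was not tested. Without mouse 35, Phlda3 was lower in PZH + AOM/DSS by -1.05 on the log2 scale (adjusted p = 0.0153, limma) and Aen differed by -0.72 (adjusted p = 0.0507), while 5.17% of genes passed. Nothing in the labels sets mouse 35 apart, and the values with all 5 mice are the ones the comparison rests on.

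**Figure D4:**
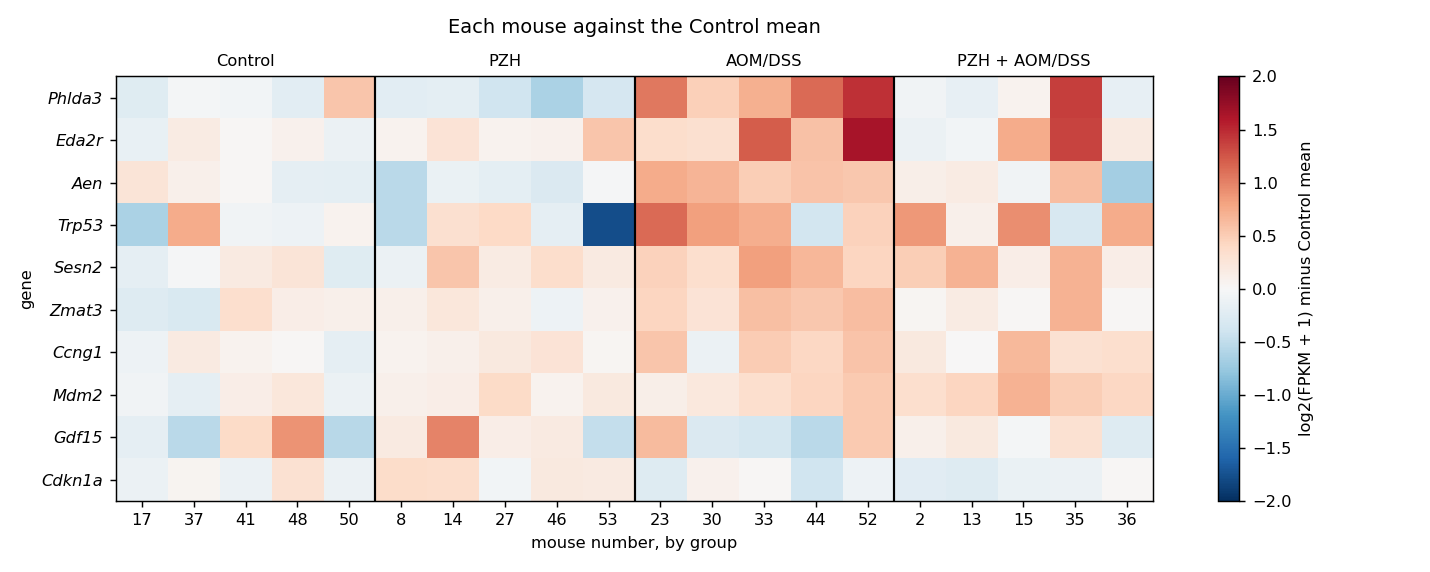
Log2(FPKM + 1) of each gene in each of the 20 mice minus its Control mean; red is above and blue below, columns are mice by group and rows are ordered by the difference between AOM/DSS and Control. PZH + AOM/DSS mouse 35 is red for Phlda3, Eda2r, Aen, Sesn2 and Zmat3 like the AOM/DSS mice, and its Trp53 (11.7 FPKM) lies below the Control mean of 15.6 FPKM. For Sesn2, mouse 13 of the same group was as high, with 5.791 FPKM against 5.785 FPKM in mouse 35.

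PZH + AOM/DSS was also set against the groups without AOM/DSS. Against Control, none of the 10 genes passed (limma), where 2.42% of 15616 genes did, and 3 had an unadjusted p under 0.05, as 20.9% of genes had. Mdm2 had 13.7, 14.7, 17.9, 15.4 and 14.6 FPKM in PZH + AOM/DSS mice, all above the highest Control mouse at 12.7 FPKM. Its log2 fold change was 0.47 (SE 0.12, adjusted p = 0.0716), and 4.18% of genes had all mice of the group above all Control mice. In the fit over all 20 mice Mdm2 passed (adjusted p = 0.0103). Sesn2 differed by 0.43 (adjusted p = 0.198) and Ccng1 by 0.30 (adjusted p = 0.224). Aen differed by 0.03, with an interval from -0.46 to 0.51, and Phlda3 by 0.21, with an interval from -0.44 to 0.87.

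Against PZH alone, which isolates AOM/DSS among PZH-fed mice, none of the 10 passed, where 2.42% of 15636 genes did, and Mdm2 and Cdkn1a had an unadjusted p under 0.05, as 20.9% of genes had. Cdkn1a differed by -0.35 (SE 0.10, adjusted p = 0.0941, limma): PZH + AOM/DSS mice had 88.6, 86.8, 94.7, 95.7 and 105.7 FPKM, and 4 of them lay below the lowest PZH mouse at 100.2 FPKM. Mdm2 differed by 0.29 (SE 0.11, adjusted p = 0.15), and by -0.67 when only protein-coding transcripts were summed. Every PZH + AOM/DSS mouse had more Phlda3 than every PZH mouse but the log2 fold change of 0.57 (SE 0.28) did not pass (adjusted p = 0.274), and it was 0.27 without mouse 35. The share of genes with this lack of overlap in the higher direction was 5%.

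The test of the difference between the PZH effects with and without AOM/DSS, over all 20 mice, passed for none of the 10 genes (limma), and for 0.0118% of 16936 genes. No unadjusted p of the 10 was under 0.05, as 10.3% of all genes were. The largest of these differences was -0.62 for Eda2r (SE 0.38, adjusted p = 0.593), followed by -0.40 for Phlda3 (SE 0.36, adjusted p = 0.736) and -0.39 for Zmat3 (SE 0.21, adjusted p = 0.534).

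The genes around p53 were read from lists drawn up by name. Of 21 p53 regulators tested between AOM/DSS and Control, 4 were called higher and none lower, with a median log2 fold change of 0.217. That is near the 16.4% of all genes called higher. One of the 4 was Cdkn2a, which met the filter on low values through the AOM/DSS mice alone and so had to differ, and its values are given as a description. It encodes the kinase inhibitor Ink4a and, in another reading frame, Arf, which binds Mdm2 and stabilises p53. It had 0.089, 0.061, 0.101, 0 and 0.131 FPKM in Control mice and 5.05, 2.72, 16.2, 6.67 and 13.8 FPKM in those given AOM/DSS, a difference of 2.98 on the log2 scale. In PZH mice it was at 0 to 0.393 FPKM. PZH + AOM/DSS mice ran from 0 to 13.3 FPKM, with mouse 35 the highest and mouse 2 at 0. The other 3 regulators were the repressor Bcl6 (0.69), the ubiquitin ligase Trim24 (0.43) and the ubiquitin ligase Rfwd3 (0.40). Each was higher in every AOM/DSS mouse than in any Control mouse, as were 13% of all genes tested. No p53 regulator that was tested passed in the other comparisons, and Cdkn2a was under the filter and not tested in those of PZH with Control and of PZH + AOM/DSS with PZH or Control.

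Of 39 further p53 targets tested, 11 rose and 2 fell in AOM/DSS, where 23.6% of all genes passed and 16.4% were higher, and the median was 0.183 against 0.094 over all genes. Among the 11, Cd80 did not meet the filter on low values in PZH against Control, so its call leans on the AOM/DSS mice. The heparan sulfatase gene Sulf2 rose by 1.25 (adjusted p = 0.000318), the mTORC1 inhibitor gene Ddit4 by 1.04 (adjusted p = 0.00394) and Trp53inp1, whose product promotes p53 phosphorylation and autophagy, by 0.98 (adjusted p = 0.00225). The kinase gene Plk3 fell by 1.16 (adjusted p = 0.00831) and Trp53i11 fell by 1.08 (adjusted p = 0.0155). Without Control mice 17 and 50, where 17.8% of genes passed, 7 of the list were higher and Plk3 alone was lower, while Trp53i11 no longer passed (adjusted p = 0.0544). In the other comparisons the list held a single call, the kinase gene Plk2, 1.09 higher in PZH + AOM/DSS than in PZH (adjusted p = 0.0288). Without mouse 35, 3 of 39 targets tested were lower in PZH + AOM/DSS than in AOM/DSS and 1 was higher, where 5.17% of all genes passed.

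Through p21, p53 also represses cell cycle genes. Of 30 such genes 4 rose in AOM/DSS and none fell, with a median of 0.227. This share was below the 16.4% of all genes called higher. Those that rose were Mcm3 by 1.01 (adjusted p = 0.00323), Mcm2 by 0.87, Mcm5 by 0.86 and Mybl2 by 0.80. Without Control mice 17 and 50, Mcm2 and Mcm5 did not pass (adjusted p = 0.0609 and 0.074), while the mitotic genes Bub1b and Cenpe did. The Mcm genes encode parts of the helicase that opens DNA for replication, and Mybl2 encodes a transcription factor of dividing cells. Mcm3 averaged 12.1 ± 3.35 FPKM in Control and 24.99 ± 3.74 FPKM in AOM/DSS. No gene of the list passed in the other comparisons.

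Sesn2 belongs to another stress pathway as well, the integrated stress response, in which Atf4 induces genes of amino acid supply. Of 21 such genes tested, 12 rose in AOM/DSS and 1 fell, beside the 16.4% of all genes called higher. The list includes Sesn2 and also Gdf15, which did not pass (adjusted p = 0.991, limma). Its median was 0.546, the value of Sesn2, against 0.094 over all genes. Among the 12, Chac1 did not meet the filter on low values in PZH against Control, so its call leans on the AOM/DSS mice. The cystine transporter gene Slc7a11 rose by 2.01 (adjusted p = 2.77e-05), the leucine transporter gene Slc7a5 by 1.57 (adjusted p = 5.16e-05), the serine synthesis gene Phgdh by 1.42, the asparagine synthetase gene Asns by 1.04 and Cebpb by 1.01. Atf3, a transcription factor of this response and also a p53 target, fell by 1.00 (adjusted p = 0.00444). Atf4 itself differed by 0.27 and did not pass (adjusted p = 0.378, limma), and neither did Trib3, Ppp1r15a or Ddit3. Without Control mice 17 and 50, 10 rose and 1 fell, where 17.8% of all genes passed. Between PZH + AOM/DSS and PZH, Atf3 was 1.31 higher (adjusted p = 0.0404), Cebpb 0.87 higher (adjusted p = 0.018) and Atf4 0.82 higher (adjusted p = 0.0378). Asns was 1.03 higher in PZH + AOM/DSS than in Control (adjusted p = 0.038), and no gene of the list passed in PZH + AOM/DSS against AOM/DSS.

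**Figure D5:**
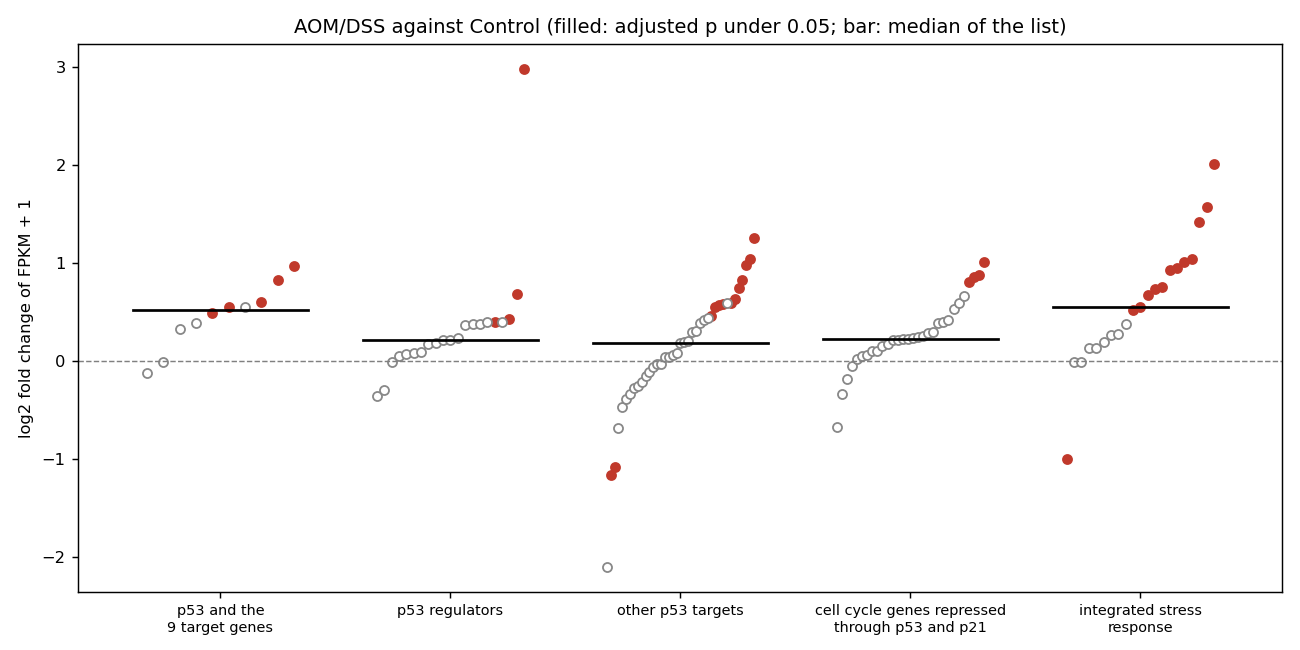
Log2 fold change of FPKM + 1 in AOM/DSS against Control for every tested gene of 5 lists; filled points have an adjusted p under 0.05 (limma) and the bar is the list's median. The medians were 0.519, 0.217, 0.183, 0.227 and 0.546 from left to right, and the highest point is Cdkn2a at 2.98, which met the filter on low values through the AOM/DSS mice alone. Sesn2 and Gdf15 are in both the leftmost and the rightmost list.

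The genes whose pattern over the 20 mice was most like that of Phlda3, the member with the largest rise on the log2(FPKM + 1) scale, were Pea15a, Nxn and Pls3. Their mean absolute difference from it in log2(FPKM + 1) minus the Control mean was 0.162, 0.172 and 0.174 among 16936 genes. Pea15a had mean levels of 23.3 FPKM (Control), 19.6 FPKM (PZH), 42.6 FPKM (AOM/DSS) and 24.1 FPKM (PZH + AOM/DSS). No member fell in AOM/DSS, so no such comparison was made for a fall.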

How the data were processed

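RNA of colon from 20 mice was depleted of ribosomal RNA and sequenced from NEBNext Ultra libraries. HISAT2 (alignment to mm10) and StringTie (transcript assembly and abundance) were run by the authors; the submitters' processing notes name mm10 and limma. The deposited values are FPKM for 118434 transcripts per mouse, of which 22252 were assembled without a gene name and not used. The unit was settled from the values, since no file header names it. FPKM of 96032 Ensembl transcripts in GENCODE M21 (GRCm38) were summed to 32991 genes, and depth was estimated from the step that 1 fragment adds to FPKM in genes with 1 transcript. Genes with at least 0.5 FPKM in at least 5 mice of a fit were tested with limma 3.58.1 in R 4.3.3 (trend, log2(FPKM + 1), two-sided, Benjamini-Hochberg over all genes). Each fit held the 10 mice of its pair of groups, and the interaction all 20. With 5 mice against 5, an exact permutation p cannot go below 0.00794. The procedure was tested on simulated data.

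The 10 genes and the lists were chosen with earlier results of these data known. All 10 were to be named, and of each list the 5 genes with the largest change past the threshold in AOM/DSS against Control and up to 3 elsewhere. Mouse numbers come from the sample titles. Alternatives were another pseudocount, filters, scaling, weights, protein-coding transcripts, 1 model and leaving out mice.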

Additional observations from a re-analysis of the deposited data

Results flagged for a closer look

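Of 40 sets of 5 mice (10 genes in 4 groups), 4 held a mouse that lay far from the other 4 by Dixon's test, and chance gives about 2. Ccng1 in AOM/DSS mouse 30 was 27.8 FPKM, against 40.7 FPKM in the nearest mouse of its group. Phlda3 in Control mouse 50 was 14.1 FPKM, against 8.94 FPKM. Phlda3 in PZH + AOM/DSS mouse 35 was 25.8 FPKM, against 9.73 FPKM, and Zmat3 in the same mouse was 7.36 FPKM, against 4.82 FPKM.

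The effect of PZH on Atf3 differed between mice with and without AOM/DSS, by 2.31 on the log2 scale (SE 0.35, adjusted p = 0.0459, limma, 1 of 2 genes that passed). Atf3 averaged 25.2 ± 7.31 FPKM in Control, 11.6 ± 5.15 FPKM in PZH, 11.9 ± 2.47 FPKM in AOM/DSS and 29.0 ± 7.56 FPKM in PZH + AOM/DSS mice. Every PZH + AOM/DSS mouse lay above every AOM/DSS mouse, with 22.2 to 40.2 against 9.77 to 15.4 FPKM. The same held for 0.403% of the 15888 genes tested between these groups. When mice were left out in turn, Atf3 passed in 4 of 20 fits (log2 difference 2.16 to 2.48, adjusted p 0.00183 to 0.126), and no gene passed in 14 of them, which include those without any 1 of the AOM/DSS mice. No gene passed this test with a pseudocount of 0.1, without a filter on low values or without Control mice 17 and 50.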

How the results depend on the processing

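Phlda3 and Aen passed in AOM/DSS against Control under every alternative tried, except Aen with protein-coding transcripts only. The number of the 10 genes that passed there was 5, and 3 without a filter or with protein-coding transcripts only, 2 without Control mice 17 and 50, and 2 to 6 when each mouse was left out in turn (2516 to 3562 of all genes). Mdm2 and Ccng1 passed as well in 1 model of all 20 mice (adjusted p = 0.0315 and 0.0362, limma), and Ccng1 did with sample weights (adjusted p = 0.0388). Zmat3 did not pass under median of ratios scaling (adjusted p = 0.065). The number of the 10 that passed stayed 0 in the other comparisons, apart from 1 (Mdm2) in PZH + AOM/DSS against Control in 1 model of all 20 mice and 0 to 1 (Phlda3, without mouse 35) in PZH + AOM/DSS against AOM/DSS. The cause of these changes was not tested. Genes with few fragments, Eda2r and Gdf15, are limited by depth, and FPKM carry no counting error. No paired analysis was possible because the groups share no mouse number.

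The number of all genes that passed moved more. In PZH against Control it was 2 with protein-coding transcripts only, 0 in the model of all 20 mice and 1 to 2 when mice were left out. In PZH + AOM/DSS against AOM/DSS it was 0 without a filter, 2 with sample weights, 89 in the model of all mice and 1 to 808 when mice were left out. Against PZH it was 90 without a filter, 242 with protein-coding transcripts, 1002 in the model of all mice and 54 to 423 when mice were left out. Against Control it was 98, 236 and 1503 under the same 3 settings, 29 without Control mice 17 and 50 and 78 to 495 when mice were left out. For the interaction it was 0 with a pseudocount of 0.1, without a filter or without Control mice 17 and 50, 1 with at least 1 FPKM in every mouse, 130 with sample weights and 0 to 476 when mice were left out.

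Only differences that had not passed changed direction. With a pseudocount of 0.1, Gdf15 was 0.0030 in AOM/DSS against Control. Without Control mice 17 and 50, Gdf15 was -0.043 in PZH against Control, -0.19 in PZH + AOM/DSS against Control and 0.11 in the interaction, where Mdm2 was 0.034. With sample weights, Trp53 was 0.040 and Gdf15 -0.0080 in PZH + AOM/DSS against AOM/DSS, and Gdf15 was -0.11 and Aen -3.08e-05 against Control. Under median of ratios scaling, Cdkn1a was 0.016 in PZH + AOM/DSS against AOM/DSS, Aen -0.043 against Control and Mdm2 0.018 in the interaction. With protein-coding transcripts only, Mdm2 was -0.30 against AOM/DSS and -0.67 against PZH, and Aen -0.083 against PZH and -0.16 against Control. Leaving out mice moved Gdf15 from -0.17 to 0.22 in AOM/DSS against Control and Trp53 from -0.54 to 0.0047 in PZH against Control. In PZH + AOM/DSS against AOM/DSS it moved Trp53 from -0.32 to 0.10, Cdkn1a from -0.082 to 0.039 and Gdf15 from -0.065 to 0.23. Against PZH it moved Gdf15 from -0.31 to 0.054, Zmat3 from -0.023 to 0.14 and Eda2r from -0.025 to 0.34. Against Control it moved Phlda3 from -0.083 to 0.35, Gdf15 from -0.079 to 0.28 and Aen from -0.12 to 0.20. In the interaction it moved Trp53 from -0.10 to 0.46, Mdm2 from -0.085 to 0.025 and Gdf15 from -0.36 to 0.060.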
